A study of Mus musculus with 10 samples.

Results

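The SRC cytosines of an amplified Smu fragment were the 40 C:G pairs, of 243 usable C:G pairs and 560 listed positions, in which the cytosine follows a purine (R, A or G) that itself follows C or G (S). Each cytosine was read 5' to 3' on the strand that carries it, so a listed G was read on the complementary strand. Smu is the switch region upstream of the IgM constant exons of the immunoglobulin heavy chain locus, where class switch recombination starts. The 5 polymorphic positions of the fragment and position 560 were left out. The rule for this choice used the reference sequence alone and no substitution value, but it was made with earlier results of these data known. A name such as G232 gives the listed base and its position in the deposited tables, and its genome build and coordinates were not given in the sources used here.

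Activation-induced deaminase (AID) converts cytosine to uracil in single-stranded DNA exposed by transcription, and it prefers cytosines in the WRC motif, in which W is A or T. An SRC cytosine keeps the purine of that motif but lacks the A or T before it. Uracil left in place pairs like thymine at replication and gives a C:G to T:A transition. The uracil glycosylase UNG removes uracil and leaves an abasic site, opposite which other bases can be placed, so C:G to G:C and C:G to A:T transversions can also arise.

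The study asked how UNG affects the substitutions that AID leaves in B cells. DNA came from mouse spleen B cells of 3 genotypes, with 4 libraries from UNG-/- cells, 4 from UNG+/+ cells and 2 from AID-/- cells, the negative controls. All cells were labelled with 5 µM CFSE, a dye diluted by division, activated with LPS at 25 µg/ml, IL4 at 10 ng/ml and BAFF at 20 ng/ml for 4 days, and sorted for 5 or more divisions. The fragment was amplified for 25 cycles with Pfu Ultra, sheared to between 100 and 300 bp and made into Illumina libraries with 10 more cycles. The labels do not say which libraries came from separate animals, so p-values measure the spread between these libraries.

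Median coverage of the SRC positions by quality-filtered reads lay between 126605 and 372802 per library. The lowest coverage of any member was 4104 reads, at G545 near the end of the fragment, and 35 of the 40 members had at least 50000 reads in every library. At the 5 polymorphic positions, reads of UNG-/- replicates 1, 2 and 4 were mixed, with a second base in 1.96% to 48.2%. UNG-/- replicate 3 carried it in at most 0.153% and UNG+/+ libraries in at most 0.256%. The AID-/- libraries, the background of every excess value, had the other base as their listed base at all 5 positions, and up to 2.34% of their reads carried the base listed for the UNG libraries. The differences in transitions and in C:G to A:T changes are therefore also given for UNG-/- replicate 3 alone. In the AID-/- reference, 2 members read differently: G377 has C as its next base and G485 has the context CGC.

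By context, 11 members were CAC, 4 CGC, 9 GAC and 16 GGC. The cytosine lay on the listed strand at 22 members and on the complementary strand at 18, and it was followed by A at 11, C at 11, T at 18 and G at 0. Position 51 was the first member and position 545 the last. The sequences below carry the range of the results: 5 members with the most transitions in UNG-/- libraries, then the highest GAC and GGC members, then 3 members with the fewest. Each is written 5' to 3' on the strand of the cytosine, with the SRC triplet in capitals and the cytosine as its last capital.
G232: tctcaCACtcacctc
G213: ctaagCACtgtcctt
G436: agcctCGCttactag
G234: cctctCACactcacc
C501: aaatgCGCtaaactg
C383: agccaGACtcataaa
C442: agcgaGGCtctaaaa
C51: ggaggGACccaggct
C363: gtaatGACccagaca
G329: cagccGACctgctgg
In 4 of the 5 highest, and in C383 and C442, the cytosine is followed by T. In the 3 lowest it is followed by C and preceded by GA.

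At SRC cytosines, transitions were more frequent in UNG-/- libraries than in UNG+/+ libraries, and C:G to G:C transversions were less frequent. Transitions, counted per 10000 quality-filtered reads and averaged over the 40 positions, were 13.3, 14.0, 10.8 and 8.80 in UNG-/- libraries, 3.59, 3.09, 3.45 and 3.23 in UNG+/+ libraries, and 1.10 and 1.13 in AID-/- libraries. The lowest UNG-/- library stood above the highest UNG+/+ library, and the lowest UNG+/+ library above both AID-/- libraries. The means were 11.7 ± 2.38 in UNG-/- and 3.34 ± 0.224 in UNG+/+ (SD, n = 4 each), a difference of 8.38 and a log2 ratio of 1.79 ± 0.16 (SE). An exact two-sided permutation test over the 70 assignments gave p = 0.0286, the smallest it can give, and 0.0381 adjusted over the 4 measures. UNG-/- replicate 3 alone stood 7.46 above the UNG+/+ mean. With the median over positions in place of the mean, the difference was 3.81 and its exact adjusted p was 0.0571.

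C:G to G:C changes were the rarest of the 3 kinds in every library. They were 0.299, 0.347, 0.422 and 0.453 per 10000 reads in UNG-/- libraries, 0.673, 0.637, 0.697 and 0.558 in UNG+/+ libraries, and 0.397 and 0.446 in AID-/- libraries. UNG-/- libraries overlapped AID-/- libraries, and every UNG+/+ library stood above both of these groups. The difference of UNG-/- from UNG+/+ was -0.261, with an exact two-sided p of 0.0286 and 0.0381 adjusted. Over the median position it was -0.0581 with an exact adjusted p of 0.371.

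C:G to A:T changes overlapped between UNG-/- and UNG+/+ libraries, and all 4 UNG-/- libraries lay below both AID-/- libraries. They were 1.77, 1.66, 2.78 and 2.18 per 10000 reads in UNG-/- libraries, 1.65, 2.37, 3.35 and 2.47 in UNG+/+ libraries, and 2.86 and 3.07 in AID-/- libraries. The difference of UNG-/- from UNG+/+ was -0.363, with an exact two-sided p of 0.457, and AID-/- libraries had the highest mean, 2.96. The difference lay between -0.633 and -0.0655 with each library left out and UNG-/- replicate 3 alone stood 0.320 above the UNG+/+ mean. Over the 554 usable positions, 97.9% to 98.3% of base calls passed the quality filter in replicates 1 and 2 of both UNG genotypes. In replicates 3 and 4 98.7% to 99.0% did. The part of quality in these values was not tested.

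**Figure D1:**
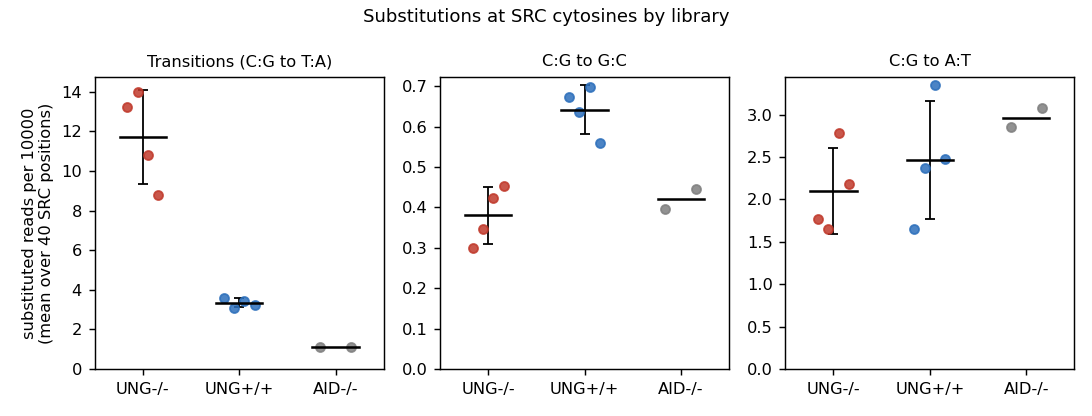
Substituted reads per 10000 quality-filtered reads, averaged over the 40 SRC positions, for transitions, C:G to G:C and C:G to A:T changes, each panel on its own linear axis. Points are libraries and lines are means (n = 4 UNG-/-, 4 UNG+/+ and 2 AID-/-), with SD bars for the UNG genotypes only. Transitions average 11.7 in UNG-/-, 3.34 in UNG+/+ and 1.11 in AID-/-.

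All substitutions together were 15.3, 16, 14.0 and 11.4 per 10000 reads in UNG-/- libraries, 5.92, 6.09, 7.50 and 6.26 in UNG+/+ libraries, and 4.35 and 4.65 in AID-/- libraries. Transitions made up 82.0% ± 5.77 of these in UNG-/- libraries and 52.3% ± 6.16 in UNG+/+ libraries (SD, n = 4 each; exact two-sided p = 0.0286), against 24.8% in AID-/- libraries. Against AID-/-, neither genotype could reach an exact p below 0.067 with 4 libraries against 2. All substitutions and transitions stood above both AID-/- libraries in each genotype. C:G to G:C changes did so in UNG+/+, and C:G to A:T changes stood below both AID-/- libraries in UNG-/-.

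Position by position, the rise in transitions reached nearly all members. edgeR's quasi-likelihood test, run over all usable C:G positions with a threshold of 0.05 on the adjusted p, called 38 of the 40 members higher in UNG-/- than in UNG+/+ libraries, where 84.3% of all tested C:G positions were called higher, and 0 lower, where 0.424% were. The median log2 fold change was 1.45 over the members and 1.47 over all tested C:G positions. TMM scaling moved the median of all C:G positions by -1.52, which removes the common rise, and relative to it edgeR called 6 of 40 members higher and 2 lower, with 23 of 40 below 0. At 33 of 40 members every UNG-/- library stood above every UNG+/+ library, against 75.7% of all C:G positions. For all substitutions together, edgeR called 26 of 40 members higher, against 56.1%, and 0 lower, against 0.844%, and 21 members had no overlap, against 47.7%. The members were thus called at shares not far from those of C:G positions in general.

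**Figure D2:**
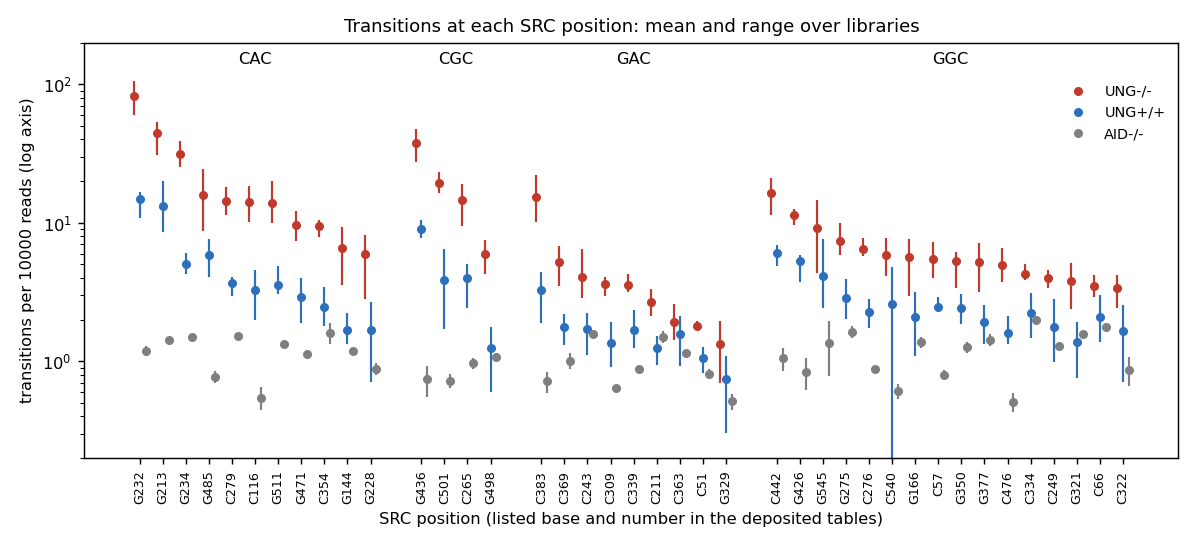
Transitions per 10000 quality-filtered reads at each of the 40 SRC positions, on a log axis, grouped by context. Points are the group means of UNG-/- (n = 4), UNG+/+ (n = 4) and AID-/- (n = 2) libraries and bars run from the lowest to the highest library. G232 stands highest in UNG-/- at 82.8, and UNG+/+ replicate 1 at C540, with 0 substituted reads, is drawn at the lower edge of the axis.

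The transitions were spread unevenly. Excess, here the value minus the mean of the AID-/- libraries, was above 0 at 40 of 40 members in UNG-/- and at 38 in UNG+/+, with a median member of 5.15 in UNG-/- and 1.14 in UNG+/+ per 10000 reads. G232 alone held 19.2% of the summed SRC excess in UNG-/- and 15.3% in UNG+/+. The 4 highest members in UNG-/- held 45.3% there and 41.8% in UNG+/+, and the 20 highest held 86.1% in UNG-/- and 87.8% in UNG+/+. The order of the members was much alike, with a Spearman correlation of 0.918 between the genotypes' excess across the 40 members, which share the subtracted AID-/- values.

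G232, in the context CACT, had 101, 106, 60.4 and 64.3 transitions per 10000 reads in UNG-/- libraries, 16.8, 10.8, 16.4 and 15.3 in UNG+/+ libraries, and 1.09 and 1.29 in AID-/- libraries. UNG-/- replicates 1 and 2 stood above replicates 3 and 4, and all 4 stood far above UNG+/+. UNG-/- replicate 1 had 2808 substituted reads of 279002, a 95% Wilson interval of 97.0 to 104 per 10000, which covers counting error only, since amplified reads without molecular identifiers are not independent molecules. The log2 fold change was 2.48 ± 0.24 (SE) with an edgeR adjusted p of 7.9e-23.

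G234 lies 2 bases from G232 on the same strand, in the context CACA, and had the largest rise of all members. Its transitions were 34.1, 39.2, 27 and 25.2 per 10000 reads in UNG-/- libraries, 5.66, 4.27, 6.09 and 4.29 in UNG+/+ libraries, and 1.44 and 1.58 in AID-/- libraries. Its log2 fold change was 2.63 ± 0.25 with an edgeR adjusted p of 8.1e-23. Both cytosines lay 14 or more bases from the nearest WRC cytosine, the longest distances in the set.

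G213, also CACT, had 47.9, 53.7, 47.1 and 30.8 transitions per 10000 reads in UNG-/- libraries, 20.1, 12.8, 11 and 8.62 in UNG+/+ libraries, and 1.43 and 1.41 in AID-/- libraries, with a log2 fold change of 1.77 ± 0.23. G436, the highest CGC member, had 42.8, 47.6, 34 and 27.7 in UNG-/- libraries, 8.47, 10.5, 9.11 and 7.81 in UNG+/+ libraries, and 0.930 and 0.549 in AID-/- libraries. C501, the other CGCT member, had 21.8, 23.2, 16.4 and 16.3 in UNG-/- libraries, 6.49, 2.38, 1.7 and 4.94 in UNG+/+ libraries, and 0.806 and 0.645 in AID-/- libraries. None of these groups overlapped. By edgeR, G436 rose by a log2 fold change of 2.08 ± 0.26 and C501 by 2.39 ± 0.32.

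These neighbours can be seen in the listed strand from position 205 to 245, where capitals mark the C:G pairs of SRC cytosines, in order C211, G213, G228, G232, G234 and C243.
Listed strand, 205 to 245: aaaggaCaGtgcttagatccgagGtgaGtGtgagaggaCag
C211 and G213 stand 2 bases apart with their cytosines on opposite strands, and C211 averaged 2.67 transitions per 10000 reads in UNG-/- libraries against 1.24 in UNG+/+ libraries, where G213 averaged 44.9 in UNG-/- and 13.2 in UNG+/+. G228, 4 bases from G232 on the same strand and the lowest CAC member, had 5.94, 6.86, 8.20 and 2.81 in UNG-/- libraries and 1.7, 0.706, 1.71 and 2.66 in UNG+/+ libraries. Its triplet is the CAC of G232 and G234, followed by C. The highest and lowest CAC members thus lay within a few bases of each other.

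Outside CAC and CGC, the highest members of their contexts were C383 and C442. C383, in GACT, had 15.3, 22.2, 13.6 and 10.2 transitions per 10000 reads in UNG-/- libraries, 3.52, 1.90, 4.41 and 3.22 in UNG+/+ libraries, and 0.841 and 0.595 in AID-/- libraries, with a log2 fold change of 2.23 ± 0.29. C442, in GGCT, had 17.6, 21.1, 15.1 and 11.3 in UNG-/- libraries, 5.92, 6.96, 6.63 and 4.88 in UNG+/+ libraries, and 1.25 and 0.856 in AID-/- libraries. Its log2 fold change was 1.41 ± 0.28, and both members had edgeR adjusted p below 0.05 with no overlap between the UNG genotypes.

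The other members with the largest rises were G144, C279, G511, C116 and G498. C116, in CACT, had 18.3, 16.5, 11.6 and 10.1 transitions per 10000 reads in UNG-/- libraries and 4.57, 4.13, 2.51 and 1.98 in UNG+/+ libraries, a log2 fold change of 2.11 ± 0.25. G498, in CGCA, had 5.24, 7.51, 6.94 and 4.26 in UNG-/- libraries and 1.78, 0.597, 1.74 and 0.837 in UNG+/+ libraries, which span the AID-/- values of 1.08 and 1.06. G144, C279 and G511 had log2 fold changes of 1.97, 1.97 and 1.92, and all had edgeR adjusted p of 5.6e-09 or less.

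C363 and C540 were the 2 members not called between the UNG genotypes. C363, in GACC, had 1.43, 2.05, 2.58 and 1.64 transitions per 10000 reads in UNG-/- libraries, 0.931, 2.14, 1.83 and 1.43 in UNG+/+ libraries, and 1.11 and 1.17 in AID-/- libraries, with a log2 fold change of 0.28 ± 0.32 and an edgeR adjusted p of 0.40. All 3 genotypes were close there. C540 had 7.79, 6.22, 4.15 and 5.22 in UNG-/- libraries and 0, 2.27, 3.42 and 4.76 in UNG+/+ libraries, from few reads: the 0 was 0 of 5553 reads, which allows up to 5.40 per 10000. Its log2 fold change was 0.75 ± 0.43 (edgeR adjusted p = 0.090), and without UNG+/+ replicate 4 it was 1.15 with an edgeR adjusted p of 0.033. C66, the lowest GGC member, had 2.93, 3.39, 4.18 and 3.38 in UNG-/- libraries and 1.38, 1.60, 2.30 and 3.03 in UNG+/+ libraries, and its log2 fold change of 0.72 passed with an edgeR adjusted p of 0.0092 but not without UNG+/+ replicate 1 (0.053).

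Members with C 2 before the cytosine had more transitions on average than members with G there. CAC averaged 22.6 ± 5.03 transitions per 10000 reads in UNG-/- libraries, 5.30 ± 0.623 in UNG+/+ libraries and 1.19 in AID-/- libraries. CGC averaged 19.5 ± 4.16 in UNG-/- libraries, 4.52 ± 0.687 in UNG+/+ and 0.877 in AID-/-. GAC averaged 4.39 ± 0.887 in UNG-/- libraries, 1.60 ± 0.155 in UNG+/+ and 0.976 in AID-/-, and GGC 6.39 ± 1.09 in UNG-/-, 2.68 ± 0.315 in UNG+/+ and 1.2 in AID-/- (SD, n = 4, 4 and 2 libraries throughout). Each of the 4 contexts was higher in every UNG-/- library than in every UNG+/+ library, with ratios of 4.27, 4.32, 2.74 and 2.38 in that order and an exact two-sided p of 0.0286, also after adjustment over 9 subclasses. Within libraries, excess at the 15 members with C 2 before the cytosine averaged 20.7 in UNG-/- and 3.98 in UNG+/+, against 4.55 in UNG-/- and 1.17 in UNG+/+ at the 25 members with G there. The difference held in 8 of 8 libraries (exact two-sided sign-flip p = 0.0078, the smallest possible, and 0.0078 adjusted over 3 contrasts). This test, like the other sign-flip tests here, covers the spread between libraries at fixed positions and not the spread between positions. Without G232 and G234, an alternative chosen after seeing the data, the C members averaged 15.3 in UNG-/- and the exact adjusted p was 0.012.

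**Figure D3:**
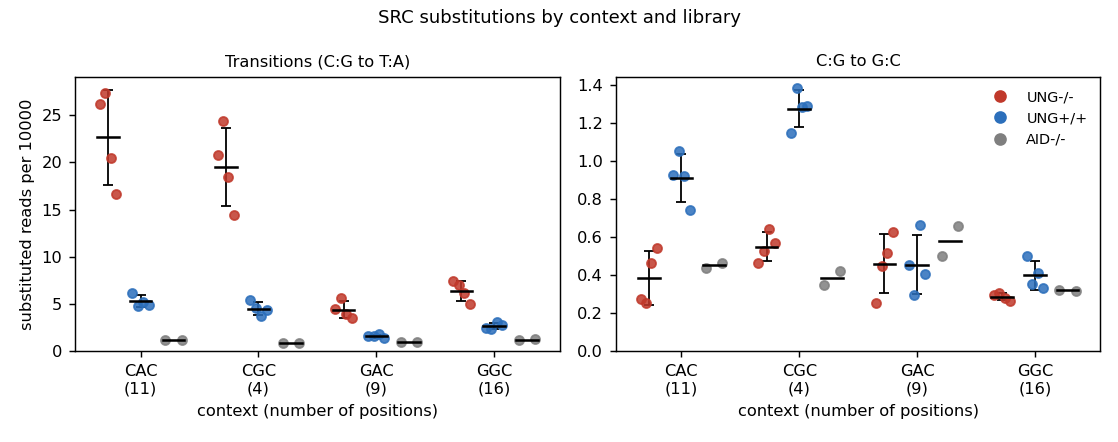
Transitions (left) and C:G to G:C changes (right) per 10000 quality-filtered reads at SRC positions of the contexts CAC (11), CGC (4), GAC (9) and GGC (16). Points are libraries and lines are means (n = 4 UNG-/-, 4 UNG+/+ and 2 AID-/-), with SD bars for the UNG genotypes only. CAC and CGC transitions average 22.6 and 19.5 in UNG-/- libraries, above GAC and GGC at 4.39 and 6.39.

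The purine just before the cytosine divided the members less firmly. With A there, excess averaged 13.3 in UNG-/- and 2.54 in UNG+/+, and with G 7.87 in UNG-/- and 1.91 in UNG+/+, over 20 members each. The mean difference of 3.04 had the same sign in 8 of 8 libraries (exact two-sided sign-flip p = 0.0078), but without G232 it was 0.955 with an exact p of 0.055, and without G232 and G234 it was 0.351 with an exact p of 0.13. The median over positions gave 0.955 with an exact p of 0.12.

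A T after the cytosine went with more transitions. Members followed by T averaged 17.0 transitions per 10000 reads in UNG-/- libraries, 4.75 in UNG+/+ libraries and 1.01 in AID-/- libraries. Members followed by A averaged 9.39 in UNG-/- libraries, 2.46 in UNG+/+ and 1.37 in AID-/-, and members followed by C 5.40 in UNG-/-, 1.92 in UNG+/+ and 1.04 in AID-/-. Excess was higher before T than before the other bases in 8 of 8 libraries, by 9.80 ± 2.39 in UNG-/- and 2.76 ± 0.164 in UNG+/+ (SD, n = 4 each; exact two-sided sign-flip p = 0.0078). This contrast of 18 members with 22 was chosen after seeing the data. The order T over A over C in UNG-/- held for the means within CAC, where CACT averaged 39.4, CACA 15.4 and CACC 9.85. Single members overlapped there. Excess in UNG-/- at the CACT members was 81.6 at G232, 43.5 at G213, 15.1 at G485 and 13.6 at C116. It was 29.9 at G234 in CACA and 12.6 at G511 in CACC. In GAC, GACT averaged 9.44, GACA 3.99 and GACC 2.18, but GACT held only 2 members. Their excess in UNG-/- was 14.6 at C383 and 2.67 at C339, the latter within the 1.17 to 4.23 of the 3 GACA members. Within GGC the order was T, C and A, at 7.20, 5.28 and 4.55, and CGC had CGCT at 28.7 and CGCA at 10.3. In UNG+/+ libraries CACT averaged 9.29, CACA 3.23 and CACC 2.73.

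Cytosines on the listed strand had fewer transitions than cytosines on the complementary strand, at 7.47 against 16.9 per 10000 reads in UNG-/- libraries and 2.44 against 4.44 in UNG+/+ libraries. In excess the listed strand stood lower in 8 of 8 libraries (exact two-sided sign-flip p = 0.0078), and without G232 and G234 the listed strand averaged 6.41 and the complementary strand 10.7 in UNG-/-. The contexts were not divided evenly, since 8 of 11 CAC members lay on the complementary strand and 8 of 9 GAC members on the listed strand. Within CAC the listed strand averaged an excess of 11.4 and the complementary strand 25.2 in UNG-/- (exact sign-flip p = 0.0078, 0.016 adjusted over both contexts tested). Within GGC the strands averaged 4.95 listed and 5.49 complementary in UNG-/- (exact sign-flip p = 0.36). The parts of strand, context and single members cannot be told apart at these few positions.

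C:G to G:C changes were lower in UNG-/- than in UNG+/+ libraries at members followed by T (unadjusted exact two-sided p = 0.0286), and a difference between following bases was not tested. With T after the cytosine these changes averaged 0.376 per 10000 reads in UNG-/- libraries, 0.956 in UNG+/+ libraries and 0.310 in AID-/- libraries. With A they averaged 0.463 in UNG-/- libraries, 0.459 in UNG+/+ and 0.633 in AID-/- libraries, and with C 0.304 in UNG-/-, 0.309 in UNG+/+ and 0.393 in AID-/-. CACT averaged 0.379 in UNG-/- libraries, 1.82 in UNG+/+ libraries and 0.332 in AID-/- libraries, and CGCT 0.661 in UNG-/- libraries, 1.81 in UNG+/+ libraries and 0.311 in AID-/- libraries.

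Of the 29 members with enough C:G to G:C reads for a test, edgeR called 6 lower in UNG-/- than in UNG+/+ and 0 higher, where 28.3% of all tested C:G positions were lower and 1.05% higher. These were G232, G436, G213, C116, C57 and C442, each followed by T, as were 13 of the 29 tested. The filter of 10 or more such reads in 2 or more libraries can be met by UNG+/+ libraries alone. At C442, UNG+/+ replicates 1 and 4 had 1.30 and 1.28 such changes per 10000 reads, and replicates 2 and 3 had 0.149 and 0.280. UNG-/- libraries lay between 0 and 0.344 there, so the UNG genotypes overlapped. C265, followed by A and picked after its values were seen, averaged 0.634 in UNG-/- libraries and 1.30 in UNG+/+ libraries and was not called (log2 fold change -0.98, edgeR adjusted p = 0.096). At 4 of the 40 members, G232, G436, G213 and C116, every UNG-/- library stood below every UNG+/+ library, against 17.3% of all C:G positions. Against AID-/-, 6 of 29 were called higher in UNG+/+ and 0 lower, against 23.6% and 1.05% of all tested positions. The 6 were G232, G436, G213, C116, C501 and G485, also each followed by T. In UNG-/- edgeR called 0 of 29 either way against AID-/-, where 0.524% of all tested positions were lower, with 2 higher and 2 lower at an unadjusted p of 0.05.

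G232 had 0.215, 0.231, 0.329 and 0.353 C:G to G:C changes per 10000 reads in UNG-/- libraries, 3.15, 4.22, 3.01 and 2.6 in UNG+/+ libraries, and 0.240 and 0.608 in AID-/- libraries, a log2 fold change of -3.48 ± 0.40 (edgeR adjusted p = 2.2e-07). G436 had 0.412, 0.347, 0.206 and 0.220 in UNG-/- libraries, 1.10, 2.97, 1.90 and 2.54 in UNG+/+ libraries, and 0.155 and 0.256 in AID-/- libraries, a log2 fold change of -2.91 ± 0.45. At both, UNG-/- libraries lay within or near the AID-/- range. G234, 2 bases from G232, had 0.155, 0.201, 0.552 and 0.710 in UNG-/- libraries, 0.254, 0.301, 0.568 and 0.267 in UNG+/+ libraries, and 0.282 and 0.375 in AID-/- libraries, and all 3 genotypes overlapped. C501 had 1.02, 0.854, 0.995 and 1.23 in UNG-/- libraries, 1.56, 0.620, 1.97 and 1.78 in UNG+/+ libraries, and 0.403 and 0.430 in AID-/- libraries, so that here the UNG genotypes overlapped and both stood above AID-/-.

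As a share of the transition excess, C:G to G:C excess at SRC members was -0.295% ± 0.629 in UNG-/- libraries and 9.83% ± 2.35 in UNG+/+ libraries (SD, n = 4 each; exact two-sided p = 0.0286). At WRC positions the same share was 0.0182% in UNG-/- and 14.6% ± 2.16 in UNG+/+. Across the 40 members the UNG+/+ transition excess and C:G to G:C level had a Spearman correlation of 0.557, a description of values from the same libraries and reads.

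C:G to A:T changes at single members did not pass the test. Of 38 tested, edgeR called 0 in either direction between UNG-/- and UNG+/+, where 20.3% of all tested C:G positions were lower, and 3 were lower at an unadjusted p of 0.05. Against AID-/-, edgeR called 0 of 38 in UNG+/+, where 4.33% of all tested positions were higher. For UNG-/- against UNG+/+, DESeq2 called 0 members, limma 1, TMM scaling 2 and the fit with replicate number as a block 6. These counts take both directions together. At G213, G228 and G232 every UNG-/- library stood below every UNG+/+ library, 3 of 40 against 19.3% of all C:G positions. G232 had 2.04, 1.29, 2.43 and 1.86 in UNG-/- libraries, 2.67, 2.75, 2.57 and 3.08 in UNG+/+ libraries, and 1.73 and 2.79 in AID-/- libraries.

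The members with the most substitutions in AID-/- libraries owed them to C:G to A:T changes. C57, C249 and C540, all GGCT, averaged 7.43, 7.07 and 6.80 substitutions of any kind per 10000 reads in AID-/- libraries, of which C:G to A:T made up 6.0, 5.53 and 6.19. C249 had C:G to A:T values of 2.44, 2.55, 5.87 and 4.79 in UNG-/- libraries, 1.63, 2.41, 7.07 and 3.50 in UNG+/+ libraries, and 5.29 and 5.78 in AID-/- libraries. These values overlapped in all 3 genotypes, and replicates 3 and 4 stood above replicates 1 and 2 in both UNG genotypes.

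Measured against AID-/- libraries, transitions were called by edgeR at 39 of 40 members in UNG-/-, where 87.3% of tested C:G positions were called, and at 25 of 40 in UNG+/+, where 64.8% were. C363 was the member not called in UNG-/-. The 2 comparisons share the AID-/- libraries. For all substitutions, 25 of 40 were called higher in UNG-/-, against 58.6%, and 11 of 40 in UNG+/+, against 40.1%. C243, in GACA, was the 1 member of 40 called lower in UNG+/+, against 0.422% of all tested positions, at 3.41, 3.42, 6.20 and 3.49 per 10000 reads in UNG+/+ libraries and 5.60 and 7.84 in AID-/- libraries, with a log2 fold change of -0.70 and an edgeR adjusted p of 0.034. G213, G232 and G436 had the highest excess in UNG+/+, at 11.7, 13.6 and 8.22 per 10000 reads, followed by G485 at 5.09 and C442 at 5.05. G485 had 15, 15, 24.6 and 8.75 transitions in UNG-/- libraries, 4.06, 7.03, 4.69 and 7.66 in UNG+/+ libraries, and 0.856 and 0.693 in AID-/- libraries. UNG-/- replicate 3, the library without the second base, was the highest of these, and the part of the neighbouring polymorphic position was not tested.

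Members with the same immediate sequence did not always have like values. The 40 members held 24 distinct sequences of 5 bases centred on the cytosine, and 28 members shared theirs with another. G232 and G485 both read caCtc and had excess of 81.6 and 15.1 in UNG-/- and 13.6 and 5.09 in UNG+/+. G228 and G511 both read caCct, with 5.07 and 12.6 in UNG-/- and 0.816 and 2.25 in UNG+/+. The 3 members reading ggCtc lay between 7.88 and 15.2 in UNG-/-, above the 3 reading ggCtt, between 3.76 and 5.23, and the 3 reading ggCtg, between 2.30 and 4.00. C51 and C363, both gaCcc, had 0.996 and 0.784.

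Distance to a hotspot cytosine gave no clear order, but it was not separate from context. All 16 members 1 base from a WRC cytosine have G just before the cytosine and A or T after it. Such a sequence reads as a WRC motif on the other strand. No member with A just before the cytosine is among them, so the parts of distance and context cannot be told apart here. Median excess was 4.80 in UNG-/- and 1.41 in UNG+/+ over the 16 members 1 base from a WRC cytosine, 7.85 in UNG-/- and 0.882 in UNG+/+ over the 9 members 2 or 3 bases away, and 5.07 in UNG-/- and 0.816 in UNG+/+ over the 15 members 4 to 16 bases away. The Spearman correlation of distance with excess was -0.052 in UNG-/- and -0.10 in UNG+/+, across 40 members that share libraries. Along the fragment, the median was 4.47 in UNG-/- and 0.611 in UNG+/+ at positions 51 to 200, 5.78 in UNG-/- and 1.39 in UNG+/+ at 201 to 300, 2.83 in UNG-/- and 0.725 in UNG+/+ at 301 to 400, and 10.5 in UNG-/- and 2.77 in UNG+/+ from 401 on. The 4 stretches held 6, 11, 12 and 11 members.

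Against other C:G classes, SRC cytosines stood below the WRC hotspot motif and above both classes with a pyrimidine (Y, C or T) just before the cytosine. Transition excess averaged 10.6 ± 2.38 in UNG-/- and 2.23 ± 0.224 in UNG+/+ per 10000 reads at SRC members. It averaged 72.0 ± 15.5 in UNG-/- and 20.1 ± 2.74 in UNG+/+ at the 74 WRC positions, 5.06 ± 1.25 in UNG-/- and 1.32 ± 0.117 in UNG+/+ at the 65 WYC positions, and 1.66 ± 0.387 in UNG-/- and 0.287 ± 0.084 in UNG+/+ at the 63 SYC positions (SD, n = 4 libraries each). The difference of SRC from each class kept its sign in 8 of 8 libraries (exact two-sided sign-flip p = 0.0078, adjusted 0.0078 over the 3 classes). The members and the WRC positions overlapped: G232 in UNG-/- exceeded 52 of 74 WRC positions, but only this member lay above the median WRC position of 50.6, and in UNG+/+ 0 members lay above the median of 15.3.

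**Figure D4:**
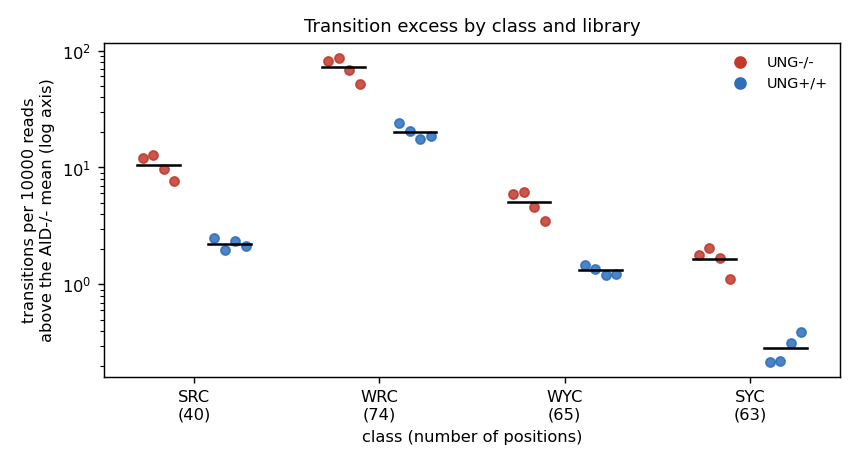
Transition excess over AID-/- per 10000 quality-filtered reads on a log axis for SRC (40 positions), WRC (74), WYC (65) and SYC (63). Points are libraries and lines are group means (n = 4 UNG-/- and 4 UNG+/+). SRC averages 10.6 in UNG-/- and 2.23 in UNG+/+, below WRC (72.0 in UNG-/-, 20.1 in UNG+/+) and above WYC (5.06 in UNG-/-, 1.32 in UNG+/+).

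The gap between SRC and WRC was narrower in UNG-/- libraries. SRC excess was 14.7% ± 0.378 of WRC excess in UNG-/- and 11.2% ± 1.54 in UNG+/+, a difference of log2 ratios of 0.40 (exact two-sided p = 0.0286). The result rests on subtracting the AID-/- level, because without subtraction the difference was 0.06 with an exact p of 0.46, and with medians over positions it was 0.34 with an exact p of 0.26. SRC excess was 211% of WYC excess in UNG-/- and 170% in UNG+/+, a difference of 0.32 (exact p = 0.0286) that fell to 0.19 with an exact p of 0.086 when G232 and G234 were left out. SRC members, 16.5% of the usable C:G positions, held 6.85% ± 0.161 of the C:G transition excess in UNG-/- and 5.34% ± 0.673 in UNG+/+ (SD, n = 4 each; exact two-sided p = 0.0286).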

How the data were processed

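Substitutions were measured in a PCR-amplified Smu fragment from 10 libraries. CASAVA 1.7, Novoalign 2.07.04 and SAMtools 0.1.11 are named in the submitters' processing notes, with no roles given. Per the file headers, the deposited tables give for each position the count of reads, of reads with Phred quality above 20 and of each substitution. Per the file headers, the authors' fraction divides each count by the filtered reads, and the same division here returned the deposited values. The fraction is printed here per 10000 reads.

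Groups come from the sample titles. A library's value is the mean over positions, and excess is that value minus the AID-/- mean at the same positions. Groups were compared by exact permutation of library labels (two-sided), and classes within libraries by exact sign flips over 8 libraries, with Benjamini-Hochberg adjustment. Positions were tested with edgeR 4.0.16 in R 4.3.3 on substituted reads, with log filtered reads as offset, all 10 libraries in the fit, for positions that had 10 or more such reads in 2 or more libraries. The offset keeps differences in total substitution load, which TMM scaling removes. Its SE was taken as the log2 fold change over the square root of F. The code was tested on simulated data.

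No 2 libraries agreed within counting noise, so none was merged. By chi-square per position, UNG-/- replicates 1 and 2 differed by 4.56, and other UNG-/- pairs by 24.4 to 62.4. UNG+/+ pairs differed by 8.96 to 23.6 and the AID-/- pair by 2.37. The labels do not say whether UNG-/- replicates 1 and 2 share a source, and the exact p-values count them as separate libraries. Named positions are the 10 largest rises and falls without overlap (no fall met this), the 5 highest in excess in each UNG genotype and in UNG+/+ C:G to G:C, the highest and lowest of each context, and the 3 highest in AID-/-. Alternatives were DESeq2 1.42.0, limma 3.58.1 with a pseudocount of 1e-05, other weights, filters and scalings, and each library left out. The members and lists were chosen with earlier results of these data known. A planned contrast of G after the cytosine could not be made, since no member is followed by G, so the subclasses number 9.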

Additional observations from a re-analysis of the deposited data

Results flagged for a closer look

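At C57, UNG+/+ replicate 2 had 2.92 transitions per 10000 reads, far from the other 3 UNG+/+ libraries at 2.28 to 2.31. At G511, UNG+/+ replicate 3 had 4.85, with the others at 3.08 to 3.24. These were the 2 single libraries standing apart by Dixon's criterion among 64 groups of 4 libraries, where chance gives about 1 in 20, and the cause was not tested. At the polymorphic position with the largest share, outside the comparisons, UNG-/- replicates 1, 2 and 4 carried a second base in 48.0%, 48.2% and 45.7% of reads, against at most 0.256% at any of the 5 polymorphic positions in UNG+/+ libraries.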

How the results depend on the processing

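With each library left out in turn, the rise in transitions per 10000 reads (8.38) lay between 7.61 and 9.35, that in all substitutions (7.75) between 7.14 and 8.67, C:G to G:C (-0.261) between -0.289 and -0.234, C:G to A:T (-0.363) between -0.633 and -0.0655, the SRC over WRC log2 ratio difference between 0.34 and 0.49, and that over WYC between 0.24 and 0.38. Without any 1 UNG-/- library the exact p of both ratio differences was 0.057, from 3 libraries against 4 that did not overlap. edgeR's C:G to A:T calls ranged from 0 to 3. With medians over positions, transitions and all substitutions each differed by 3.81 (exact adjusted p = 0.0571), C:G to G:C by -0.0581 (0.371), and the log2 ratio differences were 0.34 over WRC and 0.36 over WYC (exact p = 0.26 and 0.086). Without subtraction of AID-/-, the WRC difference was 0.060. Without G232 and G234 the WYC difference was 0.19. Within replicates 1 and 2, the differences were 10.3 in transitions, 9.66 in all substitutions, -0.332 in C:G to G:C and 0.57 over WRC, and within replicates 3 and 4 they were 6.46, 5.84, -0.190 and 0.24. UNG-/- replicate 3 alone differed from UNG+/+ by 0.320 in C:G to A:T, with the sign turned. TMM scaling, which moved the median of all C:G positions by -1.52, left 8 calls in transitions, 11 in all substitutions and 25 against AID-/- in UNG-/-, and gave 2 in C:G to A:T. By that shift 23 of 40 members fell below 0, among them these of the 19 named positions: C57 (-0.31), C66 (-0.77), C249 (-0.51), C363 (-1.25), C442 (-0.063), G485 (-0.024) and C540 (-0.54). limma gave 1 C:G to A:T call.

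Deviations of same-numbered UNG-/- and UNG+/+ libraries correlated between -0.00681 and 0.262 in transitions and between 0.0691 and 0.364 in all substitutions over all C:G positions, while differently numbered ones lay between -0.424 and 0.319 in all substitutions. Not every pair was above 0.1 in either measure, so the numbers were not taken to pair them. The replicate block kept the differences of 8.38, 7.75, -0.261, 0.40 and 0.32 but allows no exact sign-flip p below 0.125, so that 0 of 9 subclasses passed. In edgeR the replicate block gave 6 C:G to A:T calls. The planned contrast of G after the cytosine could not be run, as 0 members are followed by G. Depth limits C540 and G545 most, where few reads stand behind each value, and 11 members had too few C:G to G:C reads to be tested.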
